A study of Mus musculus with 5 samples.

Results

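The comparison of untreated *Parp14*+/+ and *Parp14*−/− Th2 cells was examined at the loci where RNA Polymerase II gave the strongest phosphoserine 2 signal. A locus was described when its mean summit height multiplied by its number of active regions, called its summed height here, reached 50 in either library. This held for 642 of 9868 loci, or 731 of the 11608 lines of the gene table, with lines of identical values counted once. The loci were therefore chosen by signal strength in either genotype and not by the difference between the genotypes.

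Naive CD4+ CD62L+ T cells from the spleens of 6 to 8 week old C57BL6 *Parp14*+/+ and *Parp14*−/− mice were activated with anti-CD3 and anti-CD28 under Th2 conditions, with 10 ng/ml IL-4 and a neutralizing antibody to IFN-γ, for 3 days. They were then expanded in IL-2 and IL-4 for 4 days, and both genotypes received the same culture. The mice carried the *Parp14* deletion in every cell, so the naive cells had developed without PARP-14. Chromatin immunoprecipitated for serine 2-phosphorylated polymerase was sequenced as 1 library per condition, each cut down to 8.2 M alignments, and the number of mice behind a library is not given in the sources used here. A second *Parp14*+/+ and *Parp14*−/− pair had been treated with the ADP-ribosyltransferase inhibitor PJ34, at 10 µM per the labels, although the methods give another dose. There were no replicates, so every difference below compares 2 libraries, and the 95% intervals (exact binomial, on the summed heights) cover counting error only.

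Serine 2 of the Polymerase II C-terminal repeat is phosphorylated as the enzyme elongates, and the mark accumulates through the gene body and beyond the site of polyadenylation. PARP-14 is an ADP-ribosyltransferase that binds STAT6 and acts as a cofactor of IL-4-induced transcription, and Th2 cells use STAT6 and GATA3 to transcribe the linked *Il4*, *Il13* and *Il5* genes. Interferon-induced genes are transcribed through STAT and IRF factors, and several PARP genes are themselves interferon-induced. In bulk chromatin, more polymerase per cell and more cells carrying it cannot be told apart.

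The targeted gene was the check of the labels. *Parp14* (chromosome 16, 35832964 to 35871586, minus strand) had a mean summit height of 8 in the *Parp14*+/+ library and 6.67 in the *Parp14*−/− library over 3 regions, a summed height below 50. SICER intervals, the stretches called as enriched over Input, spanned 59.2% of *Parp14* in the *Parp14*+/+ library and 6.95% in the *Parp14*−/− library. The interval of the height ratio included 1 (0.635 to 2.29), so that the heights did not separate the labels at this gene. The tallest SICER interval tied to it was 9 in *Parp14*+/+ and 13 in *Parp14*−/− cells. Median coverage of the 642 described loci was also lower in the *Parp14*−/− library (25.6% against 44.8%), so coverage did not settle the labels either. The 10 T cell marker genes lay between 4 and 30 in both libraries, and *Cd3e* was 8 and 9. Of 6 B cell markers, 5 lay at or below 6, and *Cd79a* was 38 and 34 in a region shared with the ribosomal protein gene *Rps19*. The 4 myeloid markers lay at or below 8, with *Itgam* at 1 and 0. Of 2 CD8 T and NK cell markers, *Cd8a* was 4 and 3, and *Nkg7* was 10 and 11 in a region shared with *Lim2* and *Cldnd2*. The 1 erythroid marker in the table was 5 and 9. These heights overlapped those of the T cell markers.

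Polymerase at the described loci was balanced between the genotypes in its centre, while the loci that differed beyond counting error were mostly higher without PARP-14. The median *Parp14*+/+ to *Parp14*−/− height ratio was 0.985 over the 642 loci and 1.00 over all loci. Heights were greater in *Parp14*+/+ cells at 299 loci, greater in *Parp14*−/− cells at 330 and equal at 13. Over all 9868 loci they were greater in *Parp14*+/+ cells at 4567, greater in *Parp14*−/− cells at 4239 and equal at 1055. The interval of the ratio excluded 1 at 99 of 642 loci, or 15.4%, against 2.33% of all loci. Of these, 27 were higher in *Parp14*+/+ cells (4.21%) and 72 in *Parp14*−/− cells (11.2%), against 0.801% and 1.53% of all loci. The described loci were taller, with a median height of 11.1 in *Parp14*+/+ and 11.6 in *Parp14*−/− cells against 7.67 and 7.5 over all loci. A ratio above 1.4 was found at 42 of the 642 loci (6.54%) and one below 0.7 at 63 (9.81%), together 16.4%, whereas 28.0% of all loci passed these limits (14.4% above and 13.6% below). Both criteria were met by 22 loci higher in *Parp14*+/+ cells and by 55 higher in *Parp14*−/− cells.

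**Figure D1:**
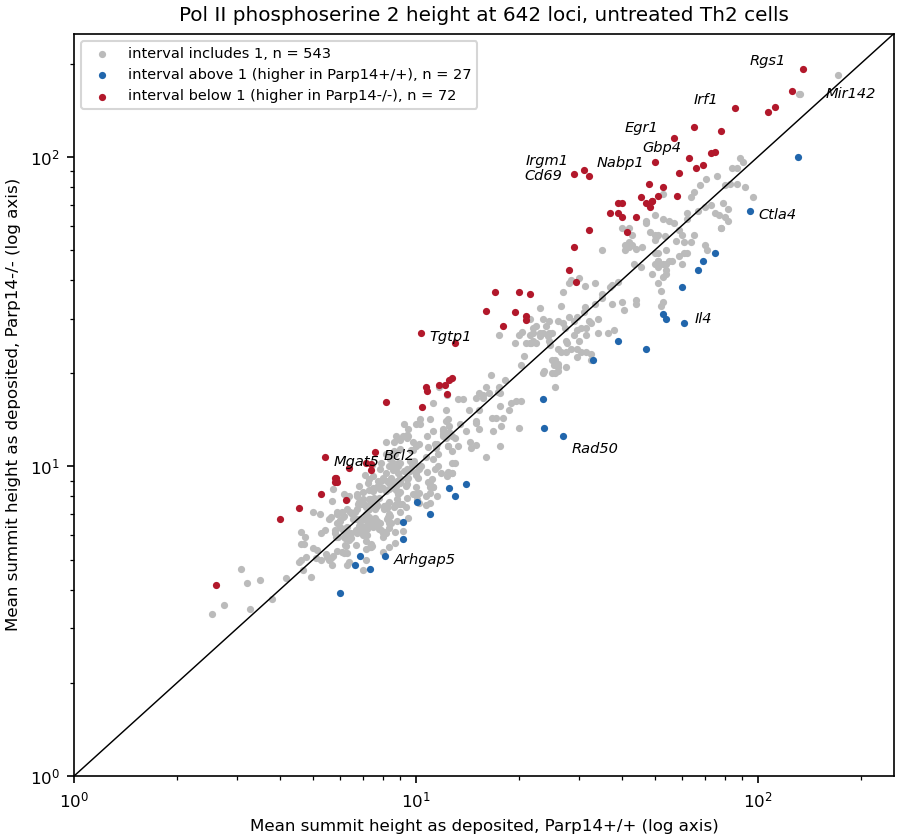
Mean summit height in untreated *Parp14*+/+ (x axis) and *Parp14*−/− (y axis) Th2 cells at 642 loci, both as deposited and on log axes, with 1 point a locus and the diagonal marking equal heights. The 72 loci whose interval lies below 1 (red) lie above the diagonal and include *Cd69*, *Irgm1* and *Irf1*, and the 27 whose interval lies above 1 (blue) include *Il4*, *Rad50* and *Ctla4*.

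Loci are not independent of each other, because one SICER interval can be tied to several neighbouring genes. The 642 loci formed 569 stretches that shared no SICER interval of either library, the 27 loci formed 24 and the 72 loci formed 58. In 15 stretches more than 1 locus was called, and together these held 32 loci. *Mief1* thus carried the summit of *Atf4*, *Patl2* and *Trim69* carried that of *B2m*, *Vmp1* that of *Mir21*, *Fbh1* that of *Il2ra*, and *Kif3a* that of *Il4*. Closest to the minimum were 3 loci just inside it, *1110059E24Rik* (summed heights 50 and 46 in *Parp14*+/+ and *Parp14*−/−), *Arid5b* (47 and 50) and *Atrip* (39 and 50), and 3 just outside it, *Alyref2* (49 and 42), *Chsy1* (49 and 42) and the *Cirbp* and *Midn* locus (25 and 49).

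Interferon-induced genes were higher without PARP-14 at every described locus of their list. Of 65 loci of this list in the table, 11 were described, all 11 were higher in *Parp14*−/− cells, and 8 had an interval below 1. Their median ratio was 0.597, against 0.985 over all 642 loci. The direction was not limited to the strongest loci, since 54 of the 65 were higher in *Parp14*−/− cells and 8 in *Parp14*+/+ cells, with a median ratio of 0.667. Of the 65, 16 had an interval below 1, against 1.53% of all loci, and none had one above 1. Both cultures had received the antibody to IFN-γ, and *Ifng* itself was 22 in *Parp14*+/+ and 16 in *Parp14*−/− cells, with an interval that included 1 (0.690 to 2.80). Whether interferon signalling differed between the cultures was not tested.

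Among the described loci of the list, the lowest ratios lay at the interferon-induced GTPases, which act against intracellular pathogens. *Irgm1*, an immunity-related GTPase (chromosome 11, 48678751 to 48684848), had a height of 31 in *Parp14*+/+ cells and 91 in *Parp14*−/− cells, a ratio of 0.341 (0.219 to 0.517). *Tgtp1*, its neighbour, was 10.3 and 27.0 over 3 regions, a ratio of 0.383 (0.245 to 0.586). In the same stretch of chromosome 11 the line between them, *Gm12185*, was 7 and 16.3, and the GTPase gene *Ifi47* was 21 and 44, both below the minimum but with intervals below 1. The heights of *Irgm1*, *Tgtp1* and *Ifi47* were thus each more than 2 times as high without PARP-14, while *Trim7*, which borders the stretch (3 and 2.5), and the olfactory receptor gene *Olfr1396* (5 and 4) had intervals that included 1. *Olfr56*, which spans *Ifi47*, was 8.2 and 16.2. On chromosome 5 the guanylate-binding protein gene *Gbp4* was 50 and 96, a ratio of 0.521 (0.362 to 0.741), and *Gbp9*, tied to the same summit, was 16 and 31.8. The adjoining *Gbp8* was 11.3 and 10.3, with an interval that included 1. Below the minimum, *Gbp6* was 4.33 and 15 and *Iigp1* 5 and 18, ratios of 0.289 and 0.278.

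Regulators of the interferon response and genes of antigen presentation lay on the same side. *Irf1*, a transcription factor induced by IFN-γ, was 86 in *Parp14*+/+ and 144 in *Parp14*−/− cells, a ratio of 0.597 (0.452 to 0.786). *Irf9*, the DNA-binding subunit of a complex activated by type I interferon, was 73 and 103 at a summit just upstream that it shared with *Rnf31*, a ratio of 0.709 (0.518 to 0.966). *Irf7*, below the minimum, was 13 and 28, a ratio of 0.464 (0.221 to 0.926). *B2m*, the invariant chain of MHC class I, was 40 and 64, a ratio of 0.625 (0.410 to 0.942). The locus of *Tapbp*, which loads peptide onto class I, and *Daxx* was 39 and 71, a ratio of 0.549 (0.362 to 0.823), and the region of the transporter and immunoproteasome genes *Tap1*, *Tap2*, *Psmb8* and *Psmb9* was 23 and 41, a ratio of 0.561 (0.321 to 0.957). The class I genes *H2-K1* (17 and 19) and *H2-D1* (24 and 28) had intervals that included 1. The classical antiviral genes *Mx1*, *Oas2*, *Oas3* and *Ifit2* were at or below 9 in both libraries, where no difference was detectable, although *Isg15* was 5 and 15 (0.0948 to 0.965).

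**Figure D2:**
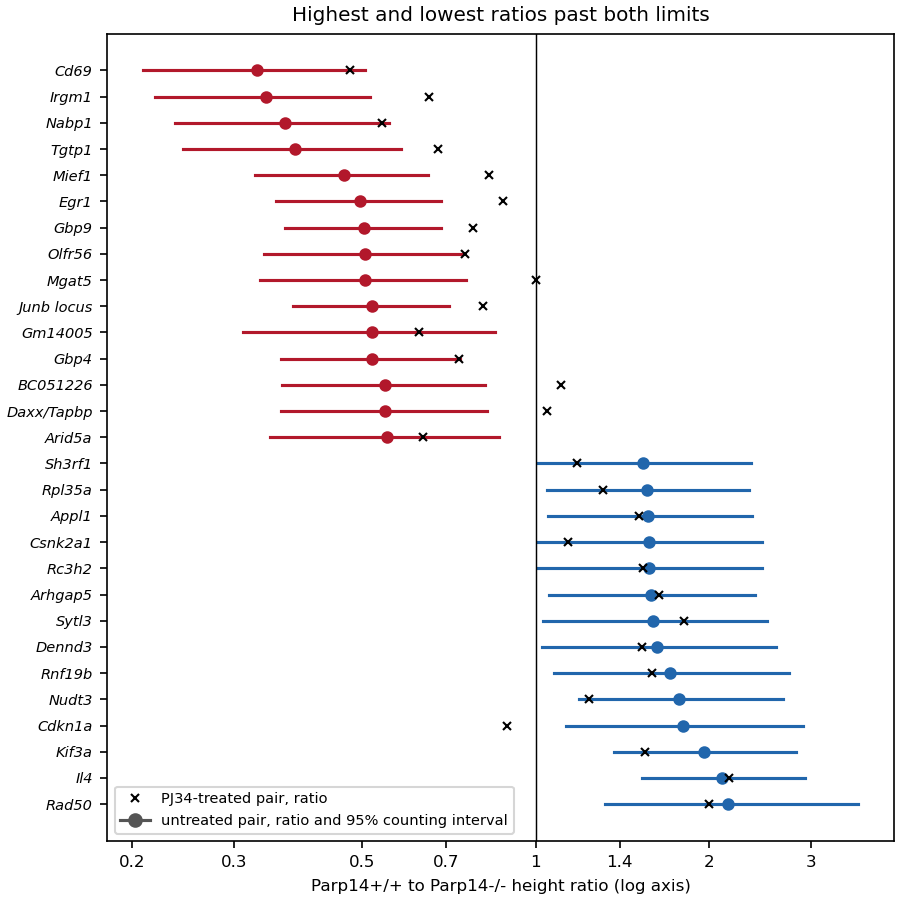
Height ratio of *Parp14*+/+ to *Parp14*−/− cells (x axis, log scale) for the 15 loci with the lowest ratios and 14 of those with the highest ratios past both limits, with dots and bars for the untreated pair and its 95% counting interval, and crosses for the PJ34-treated pair. The lowest ratios belong to *Cd69*, *Irgm1*, *Nabp1* and *Tgtp1*, and the highest to *Rad50*, *Il4* and *Kif3a*.

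Promoter sequences of called interferon-induced genes and of *Stat4*, described below, are shown because these genes were higher in one library together. In the 250 bases before the gene start, on mm9 (NCBIM37), the interferon-response letters, a pair of GAAA separated by 2 bases, were found on either strand in 24 of 71 promoters of the list (33.8%) and in 2.75% of all 10853 promoters of named lines. Of the promoters of described loci of the list 3 of 12 (25.0%) held them. Among the described loci they were found in 5 of 78 promoters (6.41%) of those higher in *Parp14*−/− cells and in 1 of 30 (3.33%) of those higher in *Parp14*+/+ cells, that of *Il4*. The STAT dimer letters TTCNNNGAA were found in 16.9% of promoters of the list, 7.69% of those higher in *Parp14*−/− cells and 5.73% of all. The stretches below lie outside annotated exons, read 5′ to 3′ along the strand of the gene and have the matched letters in capitals. The number of bases is the distance from the first matched base to the gene start.
Irf1, chr11:53583396-53583464, plus strand, TTCNNNGAA at 154 bases: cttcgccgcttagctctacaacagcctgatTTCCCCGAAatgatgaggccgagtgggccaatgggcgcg
Tgtp1, chr11:48805786-48805855, minus strand, GAAA pair at 75 bases: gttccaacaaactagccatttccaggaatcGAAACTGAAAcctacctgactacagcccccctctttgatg
B2m, chr2:121973254-121973323, plus strand, GAAA pair at 139 bases: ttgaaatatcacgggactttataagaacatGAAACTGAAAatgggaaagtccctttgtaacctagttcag
Stat4, chr1:52064957-52065026, plus strand, GAAA pair at 101 bases: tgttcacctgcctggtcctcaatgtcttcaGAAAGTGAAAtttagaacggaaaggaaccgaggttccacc
These are matches of letters in a window and not sites shown to be bound.

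The Th2 cytokine genes lay on the other side, in the same stretch of chromosome 11 as *Irf1*. From *Kif3a* to *Il3* (53380881 to 54080781) the table held 9 loci. *Il4*, the cytokine that defines Th2 cells (53425970 to 53432167), was 61 in *Parp14*+/+ and 29 in *Parp14*−/− cells over 2 regions, a ratio of 2.10 (1.53 to 2.93). *Kif3a*, downstream of it, was 47 and 24 and carried the same tallest summit, 84 and 41. The other active region of *Il4* was not identified and may be that of the neighbouring *Il13*. The values of *Il4* may therefore hold signal of its neighbours, and these loci are not separate observations. *Rad50*, whose 3′ part holds the locus control region of the cytokine genes, was 27 and 12.5 over 2 regions, a ratio of 2.16 (1.32 to 3.62). The tallest SICER interval tied to *Rad50* was 17 in both libraries, a ratio of 1.00, so the mean of 27 took in a region beyond the intervals tied to the gene. SICER intervals covered 29678 bp of it in *Parp14*+/+ and 4950 bp in *Parp14*−/− cells. *Il13*, *Il5* and *Il3* did not reach the minimum, and each was higher in *Parp14*+/+ cells with an interval above 1; *Il3*, a growth factor gene at the far end, was 48 and 24 (1.20 to 3.41). *Csf2*, next to *Il3*, was 47 and 31, and its interval included 1. *Irf1* and the adjoining *Gm12216* (45.5 and 74) lay between *Il5* and *Csf2* and were the only loci of the 9 that were higher in *Parp14*−/− cells.

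The promoter of *Il4* is shown because STAT6 is the factor that PARP-14 is known to act with. The letters TTC and GAA separated by 4 bases, the spacing that STAT6 favours, were found there and in 4.53% of all promoters, in 2 of 30 promoters of loci higher in *Parp14*+/+ cells and in 2 of 78 of those higher in *Parp14*−/− cells.
Il4, chr11:53432295-53432364, minus strand, TTC and GAA at 167 bases: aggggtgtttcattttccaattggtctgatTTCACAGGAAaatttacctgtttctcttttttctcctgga

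Other Th2 genes lay on either side of 1. Of 30 loci of the Th2 list, 10 were described, 6 of them higher in *Parp14*+/+ cells, with a median ratio of 1.08. Over all 30 loci 20 were higher in *Parp14*+/+ and 9 in *Parp14*−/− cells, with a median of 1.14. Of the 30, 5 had an interval above 1 and 2 had one below 1. *Gata3*, the lineage-defining factor, was 60 and 45, a ratio of 1.33 (0.891 to 2.01), and *Il24* was 78 and 59 (0.931 to 1.89). *Irf4* was 59 and 58, and the locus of *Il10* and *Mapkapk2* was 75 and 66. The IL-4 receptor gene *Il4ra* was 132 and 160, a ratio of 0.825 (0.650 to 1.05). *Il2ra*, the high-affinity IL-2 receptor chain, was 112 and 145 in a region shared with *Il15ra*, a ratio of 0.772 (0.598 to 0.995), and the *Junb* locus was 65 and 125, a ratio of 0.520 (0.379 to 0.707). Thus *Il4* and *Rad50* had intervals above 1 and *Junb* and *Il2ra* intervals below 1. Of the Th1 list only *Stat4* and *Id2* were described. *Stat4*, the IL-12 signal transducer, was 5.89 and 8.89 over 9 regions, a ratio of 0.663 (0.459 to 0.949), and *Tbx21*, which defines Th1 cells, was 28 and 26.

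Immediate early and activation genes formed the second group that was higher in *Parp14*−/− cells. Of 48 loci of the list 16 were described, 13 were higher in *Parp14*−/− cells and 9 had an interval below 1, with none above 1 and a median ratio of 0.710. Over all 48 loci 34 were higher in *Parp14*−/− and 12 in *Parp14*+/+ cells, with a median ratio of 0.796. Of the 48, 12 had an interval below 1 and none had one above 1. *Cd69*, an early activation marker that retains lymphocytes in tissue (chromosome 6, 129217343 to 129225387), was 29 in *Parp14*+/+ and 88 in *Parp14*−/− cells, the lowest ratio of the 99 called loci at 0.330 (0.209 to 0.507). *Egr1*, a zinc finger factor induced by T cell receptor signalling, was 57 and 115, a ratio of 0.496 (0.354 to 0.687). *Myc* was 40 and 71, a ratio of 0.563 (0.373 to 0.842), and the transcript gene beside it, *Pvt1*, was 7.39 and 10.2 over 13 regions (0.728). *Nr4a3*, a nuclear receptor induced by antigen, was 59 and 89, and *Gadd45b* was 47 and 71. *Rgs1*, a regulator of G protein signalling, had the tallest summit of the *Parp14*−/− library at 192 and was 136 in *Parp14*+/+ cells, a ratio of 0.708 (0.564 to 0.887). The difference was not shared by every immediate early gene. *Ier2* (51 and 46), *Fosl2* (65 and 56) and *Nr4a1* (25.5 and 18) were higher in *Parp14*+/+ cells with intervals that included 1, and *Csrnp1* was 84 and 92.

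Genes of T cell receptor signalling and costimulation were mostly close to equal. Of 14 described loci the median ratio was 0.986, against 1.00 over all 56 loci of the list, and apart from *Cd69* only *Rasgrp1* and *Ctla4* had intervals that excluded 1. *Rasgrp1*, which activates Ras, was 10.8 and 17.5 over 4 regions, a ratio of 0.614 (0.410 to 0.911), and its tallest SICER interval was 11 in *Parp14*+/+ and 32 in *Parp14*−/− cells. *Ctla4*, the inhibitory receptor, was 95 and 67, a ratio of 1.42 (1.03 to 1.97). *Ptpn22* (80 and 81), *Sla* (83 and 82) and the locus of *Tnfrsf4* and *Tnfrsf18* (70 and 69) differed by less than counting error. Genes outside these lists with low ratios included *Nabp1*, which encodes a single-stranded DNA binding protein, at 32 and 87, a ratio of 0.368 (0.237 to 0.557). *Arid5a*, which encodes an RNA-binding protein, was 32 and 58, and the protease gene *Gzmb* was 53 and 80. *Mgat5*, a glycosyltransferase gene, was 5.43 and 10.7 over 7 regions.

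Described genes of cytokine signalling and survival were mostly higher in the *Parp14*−/− library. Of 16 described JAK-STAT loci 13 were higher there, 7 had an interval below 1 and none had one above 1, and the median ratio was 0.768. Among the 7, *Myc*, *Mcl1* and *Pim1* were also counted in the immediate early list, *Il2ra* in the Th2 list and *Stat4* in the Th1 list. Over all 49 loci of the list 29 were higher in *Parp14*−/− and 18 in *Parp14*+/+ cells, 8 had an interval below 1 and the median ratio was 0.906. *Jak2* was 107 and 140, a ratio of 0.764 with an interval below 1, and *Pim1*, a kinase gene induced by STAT5, was 66 and 92 (0.515 to 0.995). *Mcl1*, an anti-apoptotic gene, was 49 and 72 (0.464 to 0.992). *Bcl2*, which acts with it, was 7.58 and 11.2 over 12 regions, a ratio of 0.679 (0.515 to 0.893), and SICER intervals covered 21.6% of it in *Parp14*+/+ and 81.4% in *Parp14*−/− cells. The feedback genes *Cish* (87 and 92) and *Socs1* (53 and 63) and the shared region of *Stat5a* and *Stat3* (59 and 48) had intervals that included 1. *Cdkn1a*, the cell cycle inhibitor p21, went the other way at 54 and 30, a ratio of 1.80 (1.13 to 2.91).

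**Figure D3:**
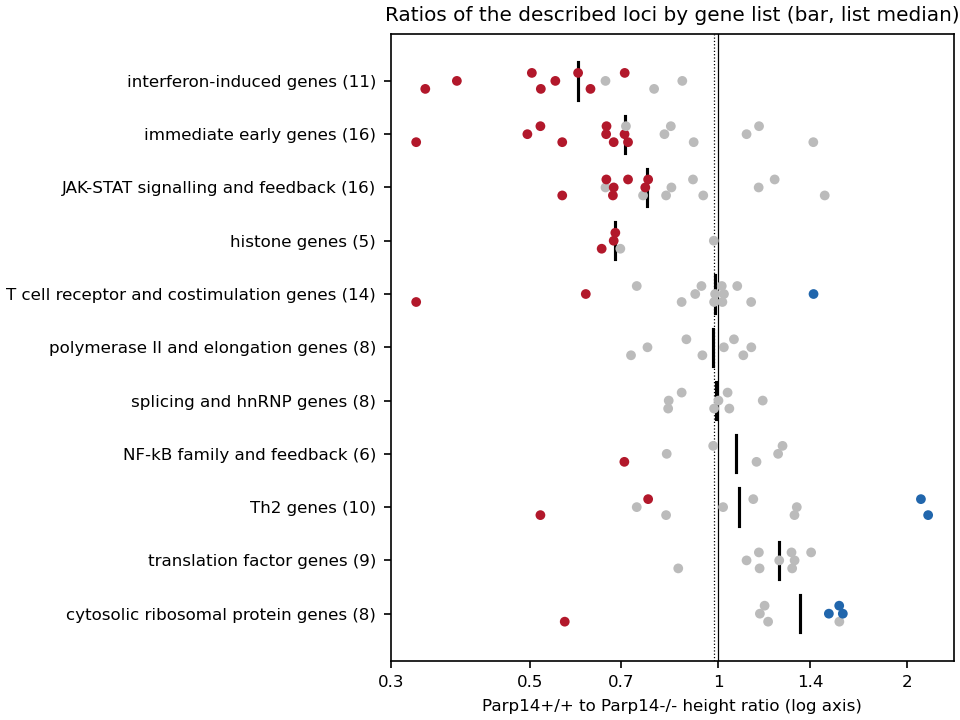
Height ratio of *Parp14*+/+ to *Parp14*−/− cells (x axis, log scale) for the described loci of 11 gene lists, with the number of loci in brackets, list medians as black bars, loci whose interval excludes 1 in red (higher in *Parp14*−/−) or blue (higher in *Parp14*+/+), and the dotted line at the median of 642 loci. The medians run from 0.597 for interferon-induced genes to 1.35 for cytosolic ribosomal protein genes.

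Ribosomal protein genes lay on the *Parp14*+/+ side. Of 81 loci of cytosolic ribosomal proteins 8 were described, 7 of them higher in *Parp14*+/+ cells, and the median ratio was 1.35. The intervals of *Rpl3* (69 and 46) and the locus of *Rpl35a* (67 and 43, ratio 1.56) lay above 1. *Rps27* was the exception at 29 and 51, a ratio of 0.569 (0.348 to 0.914). Over all 81 loci 59 were higher in *Parp14*+/+ cells and 18 in *Parp14*−/− cells, with a median ratio of 1.18. Of the 81, 4 had an interval above 1 and 1 had one below 1. *Rpl35a* and *Iqcg* (23.5 and 16.5) shared a SICER interval and lay 2.78 and 2.82 Mb from *Parp14*. Of the 6 described loci within 10 Mb of *Parp14*, 5 were higher in *Parp14*+/+ cells, against 299 of all 642. Only *Rpl35a* and *Iqcg* among the 6 had an interval that excluded 1. Of 9 described translation factor loci 8 were higher in *Parp14*+/+ cells, with a median ratio of 1.25 and no interval that excluded 1. Over all 49 translation factor loci 28 were higher in *Parp14*+/+ and 18 in *Parp14*−/− cells, with a median ratio of 1.07. The tallest of them was *Eef2*, 97 and 74 (0.959 to 1.80).

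Other housekeeping groups lay near the centre. The median ratio was 0.981 for 8 loci of Polymerase II and elongation factors and 0.992 for 8 loci of splicing factors, with no interval that excluded 1 in either group. *Polr2a*, the gene of the largest Polymerase II subunit, was 16 and 18, and the *Ddx5* locus was 133 and 160. Histone genes were the exception, with all 5 described loci higher in *Parp14*−/− cells and 3 intervals below 1, those of *H2bc3* (28 and 43), *H2ac4* (21 and 30.7) and the locus of *H1f2* and *H3c3* (49 and 72). These 3 lay in a single stretch of 12.8 kb on chromosome 13 and shared SICER intervals, and over all 40 histone loci the median ratio was 1.00. The PARP family itself had 3 described loci among 16, with a median ratio of 0.873 and no interval that excluded 1 at any of the 16. *Parp6* was 17.8 and 13.5, *Tnks*, the gene of tankyrase, was 12.4 and 14.2, and *Parp11* was 5.63 and 6.88. The interferon-induced *Parp9*, below the minimum, was 11 and 15.5. The *Actb* locus was 75 and 104, a ratio of 0.721 (0.529 to 0.980), while *Actg1* was 43.5 and 45.

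Of the described loci 4 were microRNA genes, and their mature sequences are shown to identify the products; the seed, bases 2 to 8, is in capitals. The sequences are those of RefSeq (GRCm38.p6).
miR-21a-5p: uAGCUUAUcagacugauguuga
miR-142a-3p: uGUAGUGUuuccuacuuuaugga
miR-155-5p: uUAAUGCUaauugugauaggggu
miR-29a-3p: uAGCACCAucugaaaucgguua
miR-29b-3p: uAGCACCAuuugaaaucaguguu
*Mir21*, whose product is induced on T cell activation, was 78 in *Parp14*+/+ and 121 in *Parp14*−/− cells, a ratio of 0.645 (0.479 to 0.864). *Vmp1*, which adjoins *Mir21*, was 48.3 and 69.0 over 3 regions. At the other microRNA genes of the list the intervals included 1. *Mir142* had the tallest summit of the *Parp14*+/+ library at 172 and was 184 in *Parp14*−/− cells, *Mir155* was 54 and 50, and the locus of *Mir29a* and *Mir29b-1*, which share a seed, was 50 and 45. A line labelled *Mirn715* (126 and 163, with an interval below 1) could not be matched to a gene by accession or coordinates and was not counted among them. The mark was measured on the genes, and the mature microRNAs were not.

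Loci higher in *Parp14*+/+ cells outside these groups were few, and some were long genes with low summits. *Rnf19b*, a ubiquitin ligase gene, was 53 and 31, a ratio of 1.71 (1.08 to 2.76). *Itgav*, the integrin αV gene, was 75 and 49 (1.53), and *Tnfsf8*, the CD30 ligand gene, was 131 and 100 (1.31). *Nudt3* was 23.7 and 13.3 over 3 regions, without a SICER interval of either library inside the gene and with a tallest tied interval of 7 in *Parp14*+/+ cells. Of the 27 loci 10 had 5 or more active regions, among them *Arhgap5* (8.13 and 5.13), *Appl1* (7.33 and 4.67), *Sh3rf1* (6 and 3.90), *Tanc2* (10.1 and 7.69) and *Cacna1c* (6.87 and 5.13). Of the 72 loci higher in *Parp14*−/− cells 19 had 5 or more regions and 29 had 1, against 8 with 1 region among the 27. Of all 642 loci 339 had 5 or more regions and 113 had 1, so that loci of 5 or more regions made up a smaller share of both called groups than of all described loci.

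The length of gene covered by SICER intervals followed another course than the heights. Over the 642 loci SICER intervals covered 24770.9 kb in *Parp14*+/+ and 18441.5 kb in *Parp14*−/− cells, with more coverage in *Parp14*+/+ cells at 399 loci and more in *Parp14*−/− cells at 136. At the 27 loci higher in *Parp14*+/+ cells coverage was greater there at 17 and at none in *Parp14*−/− cells, 1113.7 against 425.6 kb. *Slco3a1* was covered over 240963 and 18363 bp, *Cacna1c* over 97500 and 4650 bp, and *Arhgap5* over 24176 and 0 bp. At the 72 loci higher in *Parp14*−/− cells the balance was the other way, with greater coverage in *Parp14*−/− cells at 29 and in *Parp14*+/+ cells at 14, 2121 against 1726 kb. Besides *Bcl2*, *Prex1* was covered over 47856 bp in *Parp14*−/− and 16056 bp in *Parp14*+/+ cells, and *Stat4* over 10050 and 0 bp. Short genes such as *Cd69*, *Irgm1*, *Egr1* and *Irf1* were covered over their whole length in both libraries, and their difference was one of height.

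**Figure D4:**
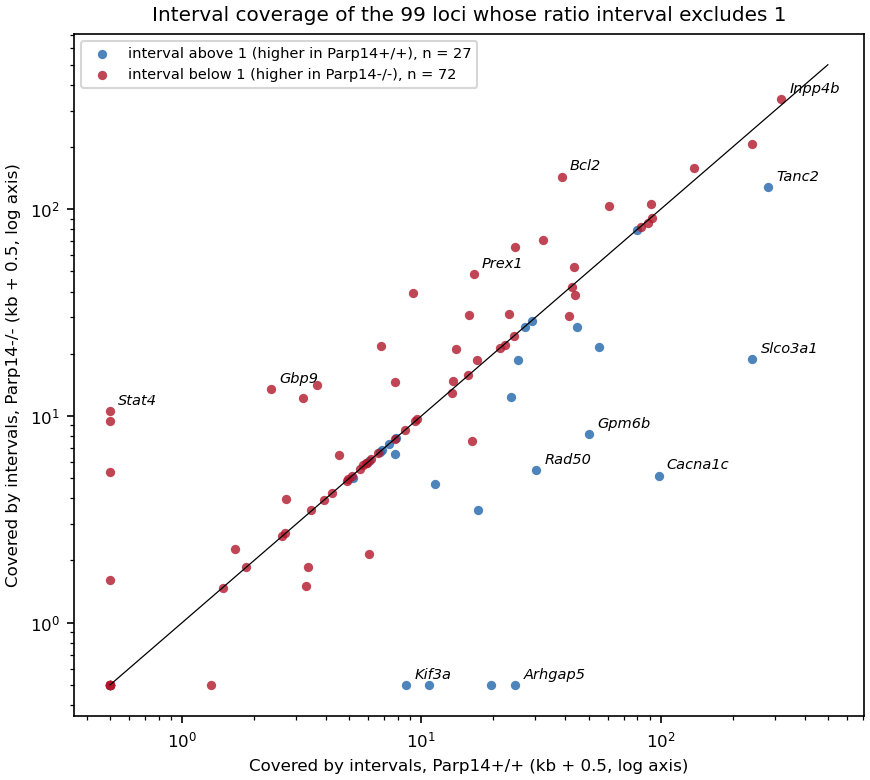
Length covered by SICER intervals in *Parp14*+/+ (x axis) and *Parp14*−/− (y axis) cells, in kb plus 0.5 on log axes, for the 99 loci whose ratio interval excludes 1, with the diagonal marking equal coverage. Loci higher in *Parp14*+/+ cells (blue) lie on or below the diagonal, and *Bcl2*, *Stat4* and *Prex1* are among those above it.

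The tallest summits lay most often beyond the gene end in both genotypes, ahead of positions inside the gene and upstream. For 552 described loci of a single line with SICER intervals in both libraries, the tallest summit lay beyond the gene end at 277 in *Parp14*+/+ and 253 in *Parp14*−/− cells, inside the gene at 199 and 233, and upstream at 76 and 66. The summits of the 2 libraries lay within 500 bp of each other at 236 of these 552 loci. Of the 65 among them with 1 active region, 53 had summits within 500 bp of each other in the 2 libraries, and the summit lay beyond the gene end at 50 and 47. At *Cd69* it lay 8587 and 8523 bp from the gene start, at *Irgm1* 6800 and 6736 bp and at *Il4* 6887 bp in both, each beyond the gene end. At these genes the height differed while the position of the summit was nearly the same. *B2m* and *Nabp1* were among those with the summit near the start, at 17 and 81 bp and at 59 and 43 bp. *Arid5a* differed, with its summit at 14121 bp in *Parp14*+/+ and at 25 bp in *Parp14*−/− cells.

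The PJ34-treated *Parp14*+/+ and *Parp14*−/− libraries shared no library with the untreated pair and gave a second look at the same genotypes. Their median ratio was 1.14 over the 642 loci, so the treated pair as a whole leaned to *Parp14*+/+ cells. Of the 27 loci higher in untreated *Parp14*+/+ cells, 23 were also higher in the treated *Parp14*+/+ library (85.2%, against 71.2% of the 642 loci). Of the 27, 9 had an interval above 1 there, against 70 of the 642 loci. Of the 72 loci higher in untreated *Parp14*−/− cells, 49 were also higher in the treated *Parp14*−/− library (68.1%, against 26.2% of the 642 loci). Of the 72, 10 had an interval below 1 there, against 21 of the 642 loci. No called locus had an interval on the other side of 1 in the treated pair. With the treated pair scaled to its own median the numbers were 20 of 27 and 64 of 72, against 50.0% of the 642 loci.

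Several of the strongest differences of the untreated pair were seen again at single genes. *Cd69* was 41 in treated *Parp14*+/+ and 86 in treated *Parp14*−/− cells (0.320 to 0.699), and *Irgm1* was 49 and 75 (0.446 to 0.949). *Il4* was 39 and 18 (1.44 to 3.31), and *Rad50* was 21 and 10.5 (1.16 to 3.56), so these 4 had treated intervals that excluded 1 on the same side. *Gbp4* was 70 and 95 (0.533 to 1.01), *Tgtp1* 14 and 20.7 and *Myc* 42 and 62 (both 0.447 to 1.02), on the same side with intervals that included 1. At *Irf1* the treated values were 110 and 119, at *Egr1* 124 and 141, and at *Cdkn1a* 33 and 37, so that the treated difference was smaller or on the other side at these genes.

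**Figure D5:**
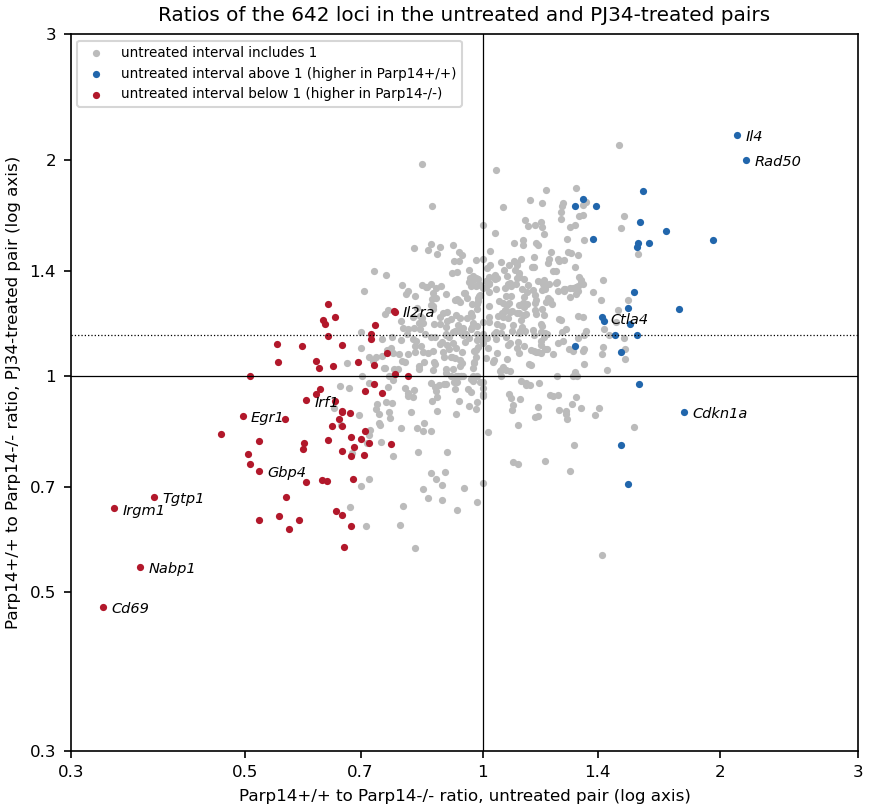
Height ratio of *Parp14*+/+ to *Parp14*−/− cells in the untreated pair (x axis) and in the PJ34-treated pair (y axis) for 642 loci on log axes, with solid lines at 1 and the dotted line at the treated median of 1.14. *Cd69*, *Irgm1* and *Tgtp1* lie below 1 and *Il4* and *Rad50* above 1 in both pairs, while *Cdkn1a* and *Il2ra* lie on opposite sides.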

How the data were processed

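RNA Polymerase II phosphoserine 2 ChIP-Seq was measured in 4 Th2 cell libraries, 1 per condition. Reads of 36 nt had been mapped to mm9 with ELAND and reduced to 8.2 M alignments by the authors, and SICER (named in the submitters' processing notes) called intervals with 150 bp windows and 450 bp gaps against Input. The deposited signal is the mean summit height over a gene's active regions, which were merged over 8 libraries; 8 columns of other samples were not used. At a few loci, such as *Mief1* in *Parp14*−/− cells (36.5 over 3 regions), the mean cannot come from whole heights over all the regions. Such a mean may be over fewer regions, and the summed height is then too large. Heights were used as deposited, and the interval tracks gave coverage and summits. Lines with identical values in the 4 libraries within 100 kb counted as 1 locus. Genes were named from the label, accession and coordinates (GENCODE vM1 on NCBIM37, RefSeq), since 58 of 731 lines carried a label that did not match; 633 of 642 loci were named. Of 9907 lines compared, 97.6% had a gene boundary within 1000 bp of GENCODE, which places the coordinates on mm9. Ratios carry exact binomial (Clopper-Pearson) 95% intervals of the summed heights, computed with scipy 1.17.1. The code was run on simulated independent Poisson counts, the model the interval assumes. This checked the code and not how well the model suits summit heights. Neighbouring fragments are not independent molecules, and no p-value was computed. Named loci were the 15 highest and 15 lowest ratios past both limits, up to 6 called loci and the tallest other locus of each of 29 gene lists, the genes of the study's Results that reached the minimum, *Parp14*, the 5 tallest loci of each library and 3 on each side of the minimum; further genes were named after their values were seen. The members, lists and motifs were chosen with earlier results of these data known. Promoter motifs, 5 in all, were searched on both strands of 250 bases. AP-1 letters (TGANTCA) were in 5 of 78 promoters of loci higher in *Parp14*−/− cells, 0 of 30 higher in *Parp14*+/+ cells and 4.00% of all. E-box letters (CACGTG) were in 4 of 78, 3 of 30 and 8.33%. Some loci chosen by these rules are not reported here by name.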

Additional observations from a re-analysis of the deposited data

Results flagged for a closer look

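The ratio of the untreated to the PJ34-treated *Parp14*+/+ to *Parp14*−/− ratio was compared at 52 named loci that were called in the untreated pair. At 13 of them the exact conditional 95% interval of this ratio excluded 1 (11 loci) or the treated pair lay on the other side of 1 (7 loci). With 1 library per condition these intervals cover counting error only, and no difference was tested between replicates. The intervals were not scaled for the treated pair's median ratio of 1.14 over the described loci. That lean alone moves the ratio of ratios below 1, so an interval below 1 need not mark a difference particular to the gene.

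At the interferon-induced and immediate early genes *Irgm1* (0.521), *Egr1* (0.564), *Gbp9* (0.648) and *Irf1* (0.646), and at *Mief1* (0.560), the treated pair lay on the same side of 1 as the untreated pair with a smaller difference. The value of *Mief1* rests on an untreated *Parp14*−/− mean that may be over fewer than its 3 regions, so it may not mark a difference. At *Mgat5* (0.507) the treated heights were equal. The treated ratio was above 1 and the untreated ratio below 1 at *BC051226* (0.494), the *Daxx* and *Tapbp* locus (0.525), *Rasgrp1* (0.586), the *Actb* locus (0.640), the *Il2ra* locus (0.627) and the *Mirn715* line (0.768), the last and *Rasgrp1* with an interval that included 1. *BC051226* had no SICER interval in either untreated library and lies beside the *Daxx* and *Tapbp* locus, so they may hold the same signal. *Cdkn1a* (2.02) was higher in untreated *Parp14*+/+ cells and lower in treated ones. With the treated pair scaled to its median ratio of 1.14, 2 of the 13 loci, *Il2ra* and *Cdkn1a*, were on the other side of 1.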

How the results depend on the processing

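No paired analysis was possible because the labels give each condition a single library, so that the groups share only the replicate number 1. Height limits what counting can separate. Of 182 loci with a mean height of 30 or more in either library, 12 were called higher in *Parp14*+/+ and 44 in *Parp14*−/− cells, and of the other 460 loci 15 and 28.

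The minimum on the summed height set the counts. With a minimum of 30 (2060 loci), 178 and 208 loci passed the ratio limits in favour of *Parp14*+/+ and *Parp14*−/−, 53 and 114 had an interval that excluded 1, the Th2 list had 4 intervals above 1 and the translation factor median was 1.07. With a minimum of 100 (86 loci) the 4 counts were 1, 11, 6 and 26, the median ratio was 0.931, the immediate early median was 0.520, the interferon-induced, immediate early and JAK-STAT lists each had 3 intervals below 1, the Th2 list had 1 above 1, the T cell receptor list had 0 on either side, and no ribosomal protein or histone locus was left. Limits of 2 and 0.5 left 2 and 6 loci, and 99% intervals left 5 and 31.

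With the highest interval height (605 loci), 80 and 98 loci passed the ratio limits, 16 had an interval above 1, 1 Th2 locus had an interval above 1 and 1 histone locus one below 1. With every line counted, 5 Th2 lines had an interval below 1 and 6 ribosomal protein lines one above 1. Requiring a SICER interval in the higher library (622 loci) moved none of these results. Scaling to a median ratio of 1 over all loci could move none either. That median was already 1.00, so the scaling was no check. By covered length the direction turned at the *Actb* locus (1.05), *Gm14005* (1.03), *Il2ra* (1.01), *Jak2* (1.01), *Nr4a3* (1.01) and *Mief1* (2.79). The scaling of the treated pair was chosen after seeing the data.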
